A study of Homo sapiens with 4 samples.

Results

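The ATP-binding cassette (ABC) family was examined in T47D cells, a human luminal breast cancer cell line that expresses the progesterone receptor (PR). Its members were taken by symbol, as every gene in the deposited RNA-seq files whose name is ABC, a subfamily letter from A to G and a number, which gave 50 of 23287 gene symbols. Of these, 14 belong to ABCA, 9 to ABCB, 14 to ABCC, 4 to ABCD, 1 to ABCE, 3 to ABCF and 5 to ABCG, and 5 of the 50 are pseudogenes (*ABCA11P*, *ABCA17P*, *ABCC13*, *ABCC6P1* and *ABCC6P2*). The RNA-seq compared cells treated for 3 h with 10 nM R5020, a synthetic progestin, with cells treated for 3 h with the vehicle, ethanol (EtOH). PR binding sites came from ChIP-seq of cells treated for 1 h with 10 nM R5020. All cells were kept in hormone-depleted, charcoal-stripped serum before treatment, for longer in the ChIP-seq than in the RNA-seq. The labels name no genetic change made to the line. There was 1 library per condition and 1 ChIP library, so these files hold no replicate check of any difference below, no p-value is given, and every value describes these libraries of a single cell line.

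ABC proteins share a cassette that binds and hydrolyses ATP. In most of them it drives the passage of a substrate across a membrane. ABCA and ABCG proteins mainly move lipids and sterols, ABCB and ABCC proteins include the multidrug pumps that expel drugs and their conjugates from tumour cells, and ABCD proteins carry fatty acyl-CoA into peroxisomes or cobalamin out of lysosomes. ABCE1 and the ABCF proteins have the cassettes but no membrane part and act on ribosomes. The PR is a ligand-activated transcription factor whose binding sites can lie within genes or far from them.

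Expression was measured as FPKM, a number of fragments corrected for transcript length and for library size. The authors estimated it with Cufflinks for each transcript, and here it was summed over the transcripts of a gene. Because FPKM is scaled to length, levels of different members can be set side by side. The coverage listed for each transcript, turned into 50-nt reads by way of the transcript's length, came to 35151493 reads in EtOH and 36203604 in R5020. The paper lists more uniquely mapped reads for both libraries, and more for EtOH than for R5020, so these totals are not library depths. These read equivalents serve below to show how much sequence stands behind a value. It is not a count, so no counting interval was derived from it. Of the luminal markers, *GATA3* had FPKM values of 253 in EtOH and 126 in R5020, *KRT19* at 608 and 477 and *PGR*, the PR gene itself, at 23.7 and 15.3. *KRT8* and *KRT18* were listed at 0 in EtOH with a failed estimate, a status that no member transcript carried. The leukocyte markers *PTPRC*, *CD3E* and *CD68* and the hepatocyte markers *ALB*, *APOA1* and *CYP3A4* were all below an FPKM of 1 in both libraries. Of the basal markers *KRT5*, *KRT14*, *TP63* and *VIM* were below 1 as well, and *ACTA2* had 1.93 in EtOH and 1.35 in R5020. In bulk samples, fewer cells of a type and less RNA per cell cannot be told apart.

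Genes were retained if their FPKM reached 1 in either library. Of the 50 members 27 were retained, or 54% against 47.3% of all gene symbols. The retained members rested on 86.0 to 13270 read equivalents in EtOH and 71.6 to 10727 in R5020, the lowest being those of the short pseudogene transcript *ABCC6P2*. Another 23 members stayed below an FPKM of 1, and 6 of them (*ABCA8*, *ABCA10*, *ABCA11P*, *ABCB11*, *ABCD2* and *ABCG8*) were listed at 0 in both libraries.

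Among the retained members *ABCC5*, an exporter of cyclic nucleotides and glutamate conjugates, had the highest level. Its FPKM was 34.0 in EtOH and 27.8 in R5020, which placed it at rank 709 and 970 of all gene symbols. In EtOH it was followed by *ABCF3* (14.2), *ABCF1* (10.97), *ABCA12* (10.5) and *ABCC11* (10.1). In R5020 the order after *ABCC5* was *ABCF3* (13.2), *ABCE1* (12.9), *ABCB10* (11.9), *ABCD3* (11.6) and *ABCC11* (10.99). With 1 library per condition there is no spread by which to tell neighbours in these orders apart.

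**Figure D1:**
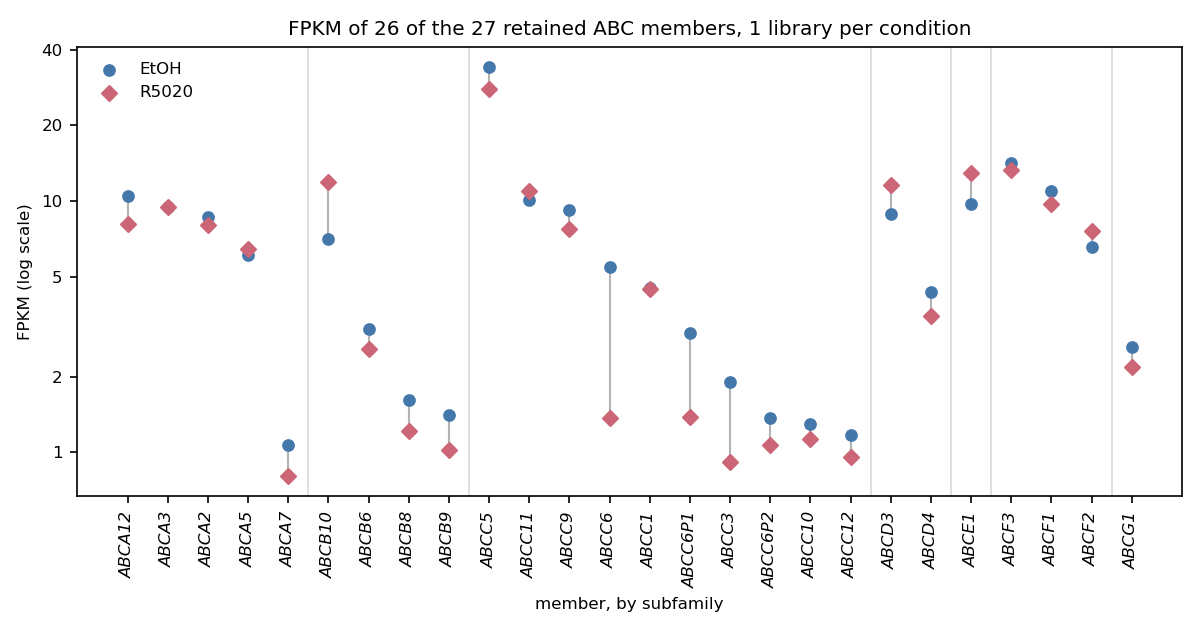
FPKM on a log scale of 26 of the 27 retained ABC members, grouped by subfamily, in the EtOH library (circles) and the R5020 library (diamonds), with a line joining the values of a member. *ABCC5* lies highest, and the longest gap between conditions is that of *ABCC6*, from 5.46 in EtOH to 1.36 in R5020.

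Some members known for drug resistance in tumours were nearly silent here, but not all, since *ABCC1* was expressed. *ABCB1*, the gene of P-glycoprotein, had 0.0063 in EtOH, which corresponded to 2.98 read equivalents, and was listed at 0 in R5020. *ABCG2*, the breast cancer resistance protein, stood at 0.129 in EtOH and 0.0660 in R5020. *ABCC2* and *ABCC4*, exporters of organic anions, had 0.101 and 0.0129 in EtOH and 0.0843 and 0.0407 in R5020. All 4 remained below an FPKM of 1 in both libraries, and their differences rest on few reads. Among drug and conjugate pumps, the highest summed levels in EtOH were those of *ABCC5*, *ABCC11*, *ABCC6* and *ABCC1*. *ABCC1* had 4.52 in EtOH and 4.45 in R5020. Of the 5.46 of *ABCC6* in EtOH, 4.05 came from a short transcript of 718 nt, and its full-length transcript had 1.42.

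Summed over its members, the ABCC subfamily had the highest FPKM, 72.8 in EtOH and 58.4 in R5020, or 39.7% and 33.7% of the family's total. The log2 ratio of R5020 to EtOH of these sums was −0.32. The difference of −14.4 FPKM was made up chiefly of *ABCC5* (−6.16), *ABCC6* (−4.10) and *ABCC6P1* (−1.60). The ABCA sum was 36.6 in EtOH and 34.0 in R5020 (log2 ratio −0.10), and the ABCF sum 31.7 and 30.6 (−0.05). Sums that were higher in R5020 were those of ABCB, with 15.8 and 19.4 (0.29), ABCD, with 14.0 and 15.7 (0.17), and ABCE, which is *ABCE1* alone, with 9.72 and 12.9 (0.40). The difference of the ABCB sum, 3.57 FPKM, was smaller than that of *ABCB10* by itself, 4.80. ABCG had the lowest sum, 2.86 in EtOH and 2.26 in R5020 (−0.34), nearly all of it from *ABCG1*. Over the whole family the sum was 183 in EtOH and 173 in R5020, a log2 ratio of −0.08.

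**Figure D2:**
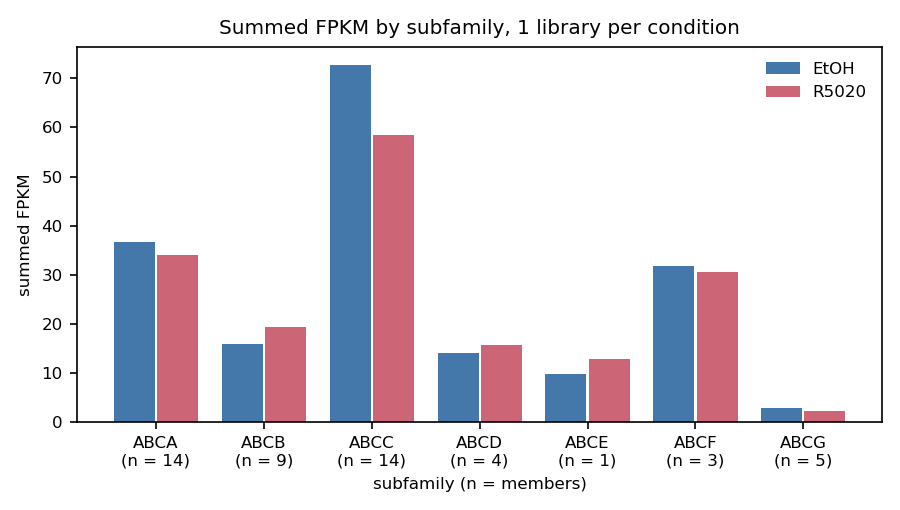
Summed FPKM of each ABC subfamily in the EtOH library and the R5020 library, with the number of members under each pair of bars and no error bars because each bar is 1 library. The ABCC bars are the tallest at 72.8 and 58.4, and the bars of ABCB, ABCD and ABCE are taller in R5020.

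The change of a gene was taken as the log2 ratio of R5020 to EtOH after 1 had been added to both FPKM values. This understates every change, and that of low genes most. A change of 1.5-fold on this scale was called. By this measure 1 retained member was higher and 3 were lower in R5020, that is 1 of 27 against 7.67% of all retained genes for higher and 3 of 27 against 4.14% for lower. The 3 include a pseudogene copy of another of them, and with the pseudogenes left out 1 of 25 was higher and 2 of 25 lower. Beyond these calls 20 of the 27 retained members (74.1%) lay below a log2 change of 0, against 49.1% of all retained genes. With the pseudogenes left out, 18 of 25 (72%) did. *ABCA7*, *ABCC3* and *ABCC12* reached the filter in EtOH alone, so they could only lie below 0, and no member reached it in R5020 alone. With an FPKM of at least 1 required in both libraries, 24 members remained. The median log2 change was −0.15 over the members and 0.01 over all 11018 retained genes. Most of these shifts were small, since 23 of the 27 members stayed within 1.5-fold.

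The member called higher was *ABCB10*, which encodes a mitochondrial inner membrane transporter needed for haem synthesis. It lies on chromosome 1 (hg19, 229652329 to 229694442, minus strand) and has a single transcript. Its FPKM was 7.08 in EtOH and 11.9 in R5020, a log2 change of 0.67, from 2597 and 4241 read equivalents. No other mitochondrial member passed 1.5-fold. *ABCB6*, linked to porphyrin transport, had 3.10 in EtOH and 2.58 in R5020, and *ABCB8* had 1.62 and 1.22.

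*ABCC6* had the largest log2 change of the retained members. The gene encodes an exporter of liver and kidney whose loss causes pseudoxanthoma elasticum, a disease of ectopic calcification, and lies on chromosome 16 (hg19, 16243422 to 16317328, minus strand). Its FPKM was 5.46 in EtOH and 1.36 in R5020, a log2 change of −1.45. Both of its listed transcripts were lower, the full-length one of 5117 nt from 1.42 to 0.647 and a short one of 718 nt from the 5′ end of the gene from 4.05 to 0.716. On the scale used for calls, the full-length transcript changed by −0.55, within 1.5-fold, and the short one by −1.56. At a pseudocount of 1 the call of *ABCC6* therefore depended on the short transcript. The full-length transcript was low, and the pseudocount lessens the change of low transcripts most, so it cannot be read as unchanged. The short form held 74.1% of the gene's FPKM in EtOH and 52.5% in R5020.

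*ABCC6P1*, a partial copy of *ABCC6* on the same chromosome, was also called lower, at FPKM values of 2.98 and 1.38 and a log2 change of −0.74. *ABCC6P2*, another partial copy, had 1.36 and 1.07 (−0.19). The copies repeat the 5′ part of *ABCC6*, and reads with more than a single position in the genome had been discarded before the values were deposited. The values of *ABCC6*, and of its short transcript above all, are therefore uncertain with respect to those of its copies, and how far the values of *ABCC6* and *ABCC6P1* can be separated was not tested.

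*ABCC3*, an exporter of glucuronides and bile salts, was the remaining member called lower. It lies on chromosome 17 (hg19, 48712218 to 48769063, plus strand), and its log2 change of −0.60 was the nearest to the threshold among the called members. That closeness depended on the pseudocount of 1, which weighs on low genes. Without a pseudocount, an alternative chosen after the data were seen, the log2 ratio of *ABCC3* was −1.06 and that of *ABCB10* 0.75. Behind it stood 917 read equivalents in EtOH and 425 in R5020. All of its FPKM came from the full-length transcript, whereas the shorter one was listed at 0 in both libraries. Of the retained members not called, the nearest to the threshold were *ABCA12* on the lower side, at −0.33, and *ABCE1* on the higher side, at 0.37. No retained member thus lay close to 1.5-fold without reaching it.

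**Figure D3:**
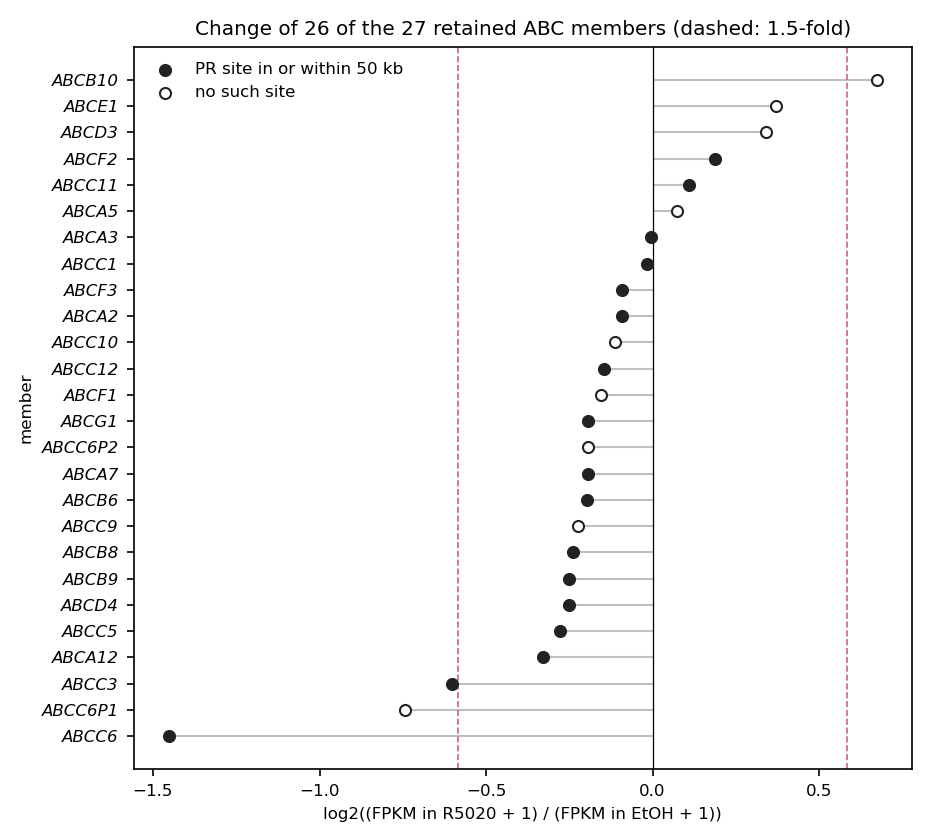
Log2 change of 26 of the 27 retained ABC members between the R5020 and the EtOH library, with 1 added to each FPKM, in which filled circles mark members with a PR site in or within 50 kb of the locus and dashed lines mark 1.5-fold. *ABCB10* passes the upper line, *ABCC3*, *ABCC6P1* and *ABCC6* pass the lower line, and 15 of the 17 filled circles lie below 0.

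Of the lipid transporters *ABCA12*, which loads ceramides into lamellar granules of the skin, had 10.5 in EtOH and 8.13 in R5020. *ABCA3*, the surfactant lipid transporter, was nearly equal with 9.49 and 9.45. *ABCA2* had 8.63 and 8.04, *ABCA5* 6.10 and 6.46 and *ABCA7* 1.07 and 0.804. None of these 5 reached 1.5-fold, and only *ABCA5* was higher in R5020.

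The exporters of cholesterol to lipoproteins were low or moderate. *ABCA1* stood at 0.351 in EtOH and 0.667 in R5020, from 350 and 634 read equivalents, and so failed the filter on low values. Its log2 change was 0.30 with a pseudocount of 1 and 0.93 without one, an alternative chosen after the data were seen. *ABCG1* had 2.63 in EtOH and 2.18 in R5020 (−0.19). The sterol pumps of liver and gut, *ABCG5* and *ABCG8*, were at 0.0701 in EtOH and listed at 0 in R5020, and listed at 0 in both, respectively.

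Of the peroxisomal members only *ABCD3*, which imports branched and long-chain acyl-CoA, was retained, with 8.91 in EtOH and 11.6 in R5020 (log2 change 0.34). The lysosomal members *ABCD4* and *ABCB9* had 4.33 and 1.40 in EtOH and 3.47 and 1.02 in R5020, each with a log2 change of −0.25.

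The 4 members that act in translation were all retained and all within 1.5-fold. *ABCE1*, which splits ribosomes after termination, had 9.72 in EtOH and 12.9 in R5020 (0.37). *ABCF1*, which works with the initiation factor eIF2, had 10.97 and 9.76 (−0.15), *ABCF2* 6.55 and 7.60 (0.19) and *ABCF3* 14.2 and 13.2 (−0.09). The *ABCF1* value comes from the chromosome 6 locus alone, because its transcripts on the alternative haplotypes were listed at 0.

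The remaining retained ABCC genes stayed within 1.5-fold. *ABCC9*, the sulfonylurea receptor of cardiac and smooth muscle potassium channels, had 9.23 in EtOH and 7.76 in R5020. *ABCC11*, the apocrine gland transporter that decides the type of earwax, had 10.1 and 10.99. *ABCC12*, next to it on chromosome 16, had 1.17 and 0.959, and *ABCC10* had 1.30 and 1.13.

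Below the filter, *ABCC8*, the sulfonylurea receptor of beta cells, had 0.00505 in EtOH and 0.119 in R5020. These values rest on 2.52 and 56.2 read equivalents, and no fold is given for them. Its channel partner *KCNJ11*, the neighbouring gene on chromosome 11, had 0.653 in EtOH and 3.64 in R5020, a log2 change of 1.49, and was called higher.

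At the level of transcripts, 86 member transcripts were listed on the main chromosomes and 35 reached an FPKM of 1 in either library. Among them 5 passed 1.5-fold upwards, against 11.3% of all transcripts retained in the same way, and 5 passed it downwards, against 8.34%. Several members with a nearly constant sum had transcripts that went in opposite directions. *ABCA2* is an example, since NM_001606 had 8.63 in EtOH and 5.48 in R5020 whereas NM_212533, which starts further upstream, was listed at 0 in EtOH and had 2.56 in R5020. For *ABCC1*, NM_004996, the longest form, went from 1.23 to 2.87, while NM_019862 and NM_019899 went from 0.974 and 0.859 to being listed at 0. *ABCC11* had 8.29 and 7.17 for NM_032583 and 1.83 and 3.81 for NM_145186.

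For *ABCE1* NM_002940 had 8.05 in EtOH and 12.9 in R5020, and NM_001040876, which is nearly the same length, had 1.67 and was listed at 0. *ABCB9* had NM_019624 at 1.12 and 0.412 and NM_001243013 listed at 0 in EtOH and at 0.605 in R5020. The leading transcript differed between libraries for 3 of the 17 retained members with more than 1 transcript, namely *ABCB9*, *ABCC1* and *ABCF2*. Both transcripts of *ABCC5* were lower in R5020, NM_005688 with 19.2 and 16.4 and the short NM_001023587 with 14.8 and 11.5. With the highest transcript of each library in place of the sum *ABCC1* and *ABCE1* passed 1.5-fold upwards, but for *ABCC1* this compares NM_019898 in EtOH with NM_004996 in R5020. Transcripts of a gene share most of their sequence, and how Cufflinks divided the reads between them could not be checked from 1 library per condition.

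**Figure D4:**
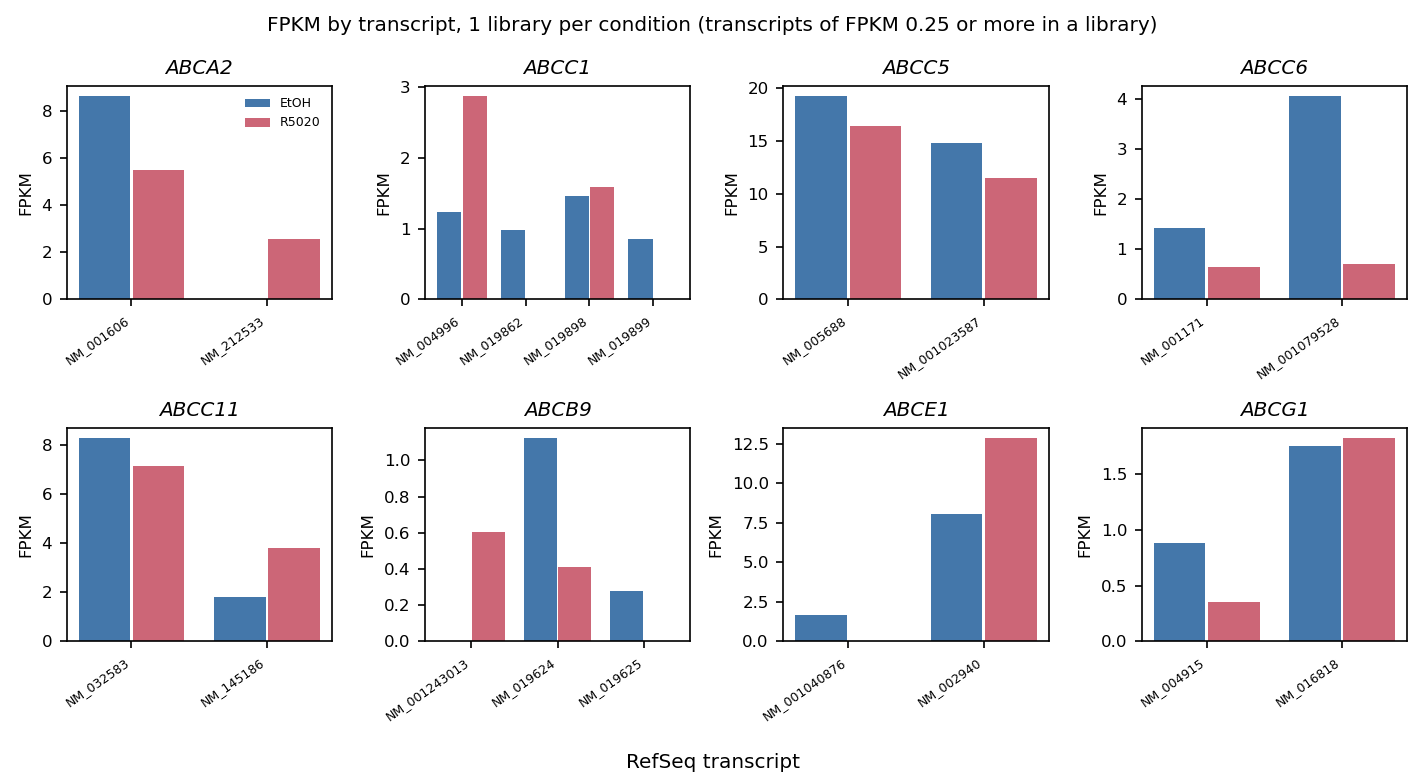
FPKM of the transcripts of 8 members in the EtOH and R5020 libraries, each panel with its own scale from 0 and with transcripts under an FPKM of 0.25 in both libraries left out. In *ABCA2*, *ABCB9*, *ABCC1* and *ABCE1* at least 1 transcript is listed at 0 in a single library, and in *ABCC5* and *ABCC6* both transcripts are lower in R5020.

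PR binding was assessed from 11181 sites. Each carries a MACS score, which grows with the significance of the site. A site was tied to a member when its nearest edge lay in the locus, taken as the extent of its listed transcripts, or within 50 kb of it. In all, 23 of the 50 members (46%) had such a site, against 45.7% of all gene symbols. A site overlapped the locus of 11 members (22%), against 18% of all genes. The family's loci were long, with a median of 68.4 kb against 18.6 kb for all genes. Within the family those with and without a site were of similar length, with medians of 64.9 and 68.8 kb.

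Among the retained members 17 of 27 (63.0%) had a site, against 52.7% of all retained genes. Of these 17, 15 lay below a log2 change of 0, or 88.2% against 51.8% of all retained genes with a site. The 15 include *ABCA7*, *ABCC3* and *ABCC12*, which passed the filter through EtOH alone and so could only lie below 0. Of the 10 retained members without a site 5 lay below 0, against 46.2% of all retained genes without one. The 15 were mostly small shifts, since only *ABCC3* and *ABCC6* among them passed 1.5-fold. The remaining 2 with a site, *ABCF2* and *ABCC11*, were slightly higher in R5020. When each gene was instead represented by the highest transcript of each library, *ABCC1* and *ABCG1* moved from below to above 0 and *ABCC11* from above to below it.

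Split by change, 2 of the 4 called members had a site. *ABCB10*, the member called higher, had none within 50 kb, its nearest site being 66.2 kb away, against 61.4% of all genes called higher that had one. Of the 3 called lower *ABCC3* had 5 sites, *ABCC6* had 1 and *ABCC6P1* had none, against 61% of all genes called lower. Of the 23 members within 1.5-fold 15 had a site, against 51.5% of all such genes.

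The 59 different sites near members had a median score of 81.4, against 74.5 for all sites, and 14 of them (23.7%) scored 100 or more, against 16.3% of all sites. The highest was 206, far below the 1965 of the strongest site in the library. They formed 61 pairs with members, of which 14 were in an intron, 7 in an exon, 23 upstream and 17 downstream of the locus. Within 1 kb of the start of transcription lay the midpoint of 1 site, at *ABCC4* on chromosome 13 (chr13:95952998-95953558, score 85.2). It lay 0.41 kb into a gene that was itself below an FPKM of 1. Such positions were not counted for all sites, so these counts have no share to stand beside.

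*ABCA2* had the most sites, 12, of which 3 lay in the gene and the strongest (score 150) was intronic, 7.79 kb downstream of the start. *ABCF3* followed with 9, of which 2 lay in the gene and 5 lay 36.2 to 46.7 kb beyond its end. The log2 changes of their summed FPKM were −0.09 each, although the transcripts of *ABCA2* went in opposite directions. Whether the number of sites bears on the change of a gene was not tested. *ABCC3* had sites 8.17 kb upstream of the gene (score 113), in introns 7.43, 24.2 and 49.8 kb from its start (scores 81.6, 69.0 and 65.9) and downstream of the gene (65.1). *ABCC5* had 5 sites, and 3 of those in the gene, with scores from 62.6 to 73.6, lay 30.7 to 34.2 kb into the gene around the 3′ end of its short transcript.

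The only site of *ABCC6* (chr16:16244219-16244679) lay in an exon at the 3′ end of the gene. Its score of 50.5 was close to 50, the lowest in the file, and it was also within 50 kb of *ABCC1*. The site between *ABCC11* and *ABCC12* (chr16:48199216-48199654) scored 148 and lay 1.17 kb beyond the end of *ABCC11* and 18.5 kb upstream of *ABCC12*. Neither gene reached 1.5-fold. *ABCG1* had 3 sites in the gene with scores from 73.5 to 106.

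**Figure D5:**
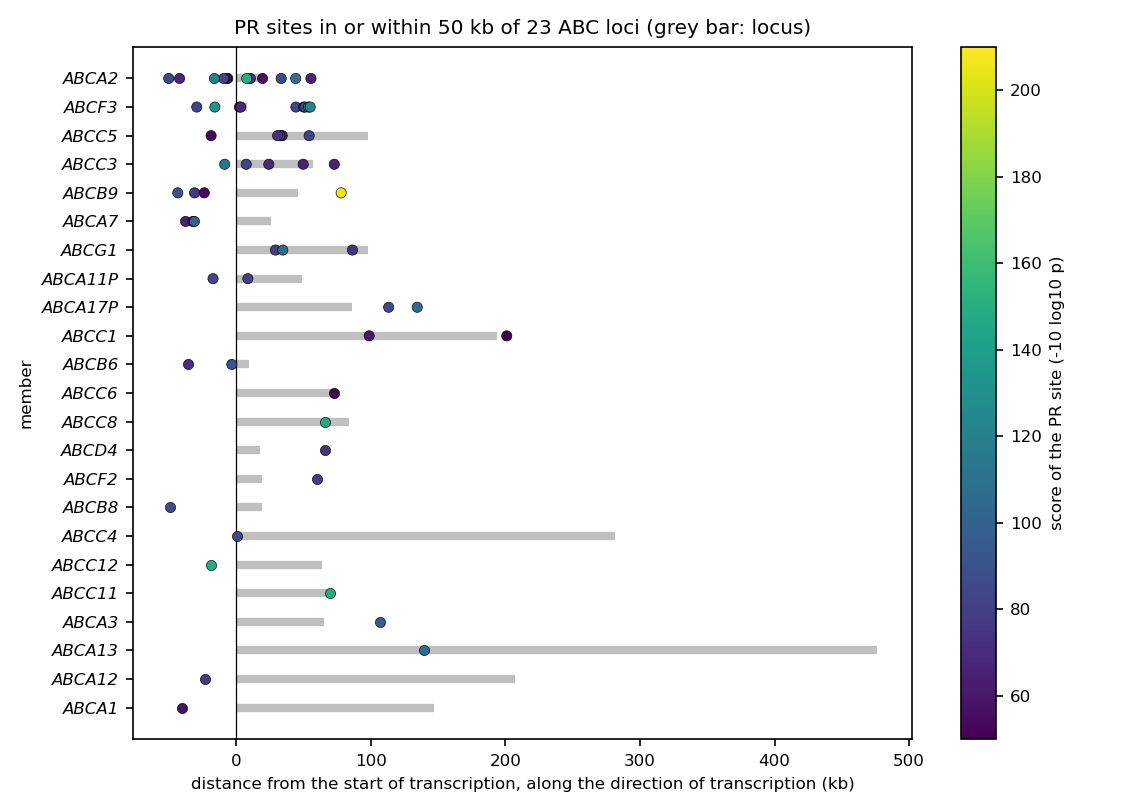
PR sites in or within 50 kb of 23 ABC loci, drawn by the distance in kb of their midpoint from the start of transcription, with grey bars for the extent of each locus and colour for the score. *ABCA2* and *ABCF3* carry 12 and 9 sites, most of them outside the gene, whereas the sites of *ABCC3*, *ABCC5* and *ABCG1* lie largely within it.

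The sequence under these sites was read from GRCh37, the assembly of hg19, in 300 bp centred on each site. The progesterone response element joins a pair of inverted arms, and was searched on both strands as GNACA, any 3 bases and TGTNC, and as the single arm AGAACA on either strand, which can be part of it. None of the 59 sites near members held the former, against 1.89% of all sites on the main chromosomes. AGAACA was found in 15 of the 59 (25.4%), against 17.7% of all sites. The windows near members were also richer in G and C, with a median of 63% against 57.3%. These are matches of letters and no match says only that the letters are absent from the window.

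To show what surrounds AGAACA near retained members, 30 bases are given below for 8 matches, read 5′ to 3′ on the strand on which the motif (in capitals) reads AGAACA, with the 3-base spacer and the position of the opposite arm following it.
ABCB9, chr12:123372985-123373014, minus strand: tcactggcgctcAGAACAtgctgagacaag
ABCC11 and ABCC12, chr16:48199543-48199572, minus strand: acaggccgatccAGAACAgggctacctgag
ABCC11 and ABCC12, chr16:48199376-48199405, minus strand: ttcaaggcagagAGAACAgcaaacaaatcc
ABCC3, chr17:48762068-48762097, minus strand: gcagggtccccgAGAACAggatggggtcct
ABCG1, chr21:43648938-43648967, minus strand: acgcagcacccaAGAACAggctggtgttgg
ABCC5, chr3:183681408-183681437, plus strand: cagcgcaagtccAGAACAgcgtggaggggt
ABCF3, chr3:183906325-183906354, minus strand: ggcactgtggaaAGAACAagggcttctgag
ABCC1, chr16:16142342-16142371, minus strand: atgccaccaaggAGAACAtcaacctgacaa
At the place of the opposite arm, TGTTCT, the *ABCG1* and *ABCF3* stretches matched 4 of 6 letters, that of *ABCC3* matched 3, those of *ABCB9* and *ABCC5* matched 2, the *ABCC11* stretches matched 2 and 0, and that of *ABCC1* matched 1. Over all 17 such stretches the most was 4 and the median 1.

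The intronic *ABCC8* site scored 147 and lay 65.6 kb from the gene's start, within 50 kb of *KCNJ11*. Its 300-bp window is shown because it is among the strongest sites inside a member and held neither motif, and it stands beside the intronic site of *ABCC3* with the highest score, which held none either.
ABCC8, chr11:17432683-17432982, plus strand: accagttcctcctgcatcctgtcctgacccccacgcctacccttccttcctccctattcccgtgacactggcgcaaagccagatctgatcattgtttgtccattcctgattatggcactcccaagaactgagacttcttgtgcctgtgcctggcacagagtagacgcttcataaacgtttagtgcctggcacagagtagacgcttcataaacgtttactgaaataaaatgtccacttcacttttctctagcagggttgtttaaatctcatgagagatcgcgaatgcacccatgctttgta
ABCC3, chr17:48719493-48719792, plus strand: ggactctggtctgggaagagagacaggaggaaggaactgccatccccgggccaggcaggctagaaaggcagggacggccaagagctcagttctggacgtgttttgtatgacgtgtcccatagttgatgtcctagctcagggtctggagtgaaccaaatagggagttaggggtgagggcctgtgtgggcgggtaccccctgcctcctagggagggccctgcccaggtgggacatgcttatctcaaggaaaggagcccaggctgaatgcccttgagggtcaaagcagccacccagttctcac

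A site near a member can also be near another gene. Within 50 kb of these 59 sites lay 53 retained genes that are no members, of which 4 (7.55%) passed 1.5-fold in either direction, against 13.7% of all retained genes with a site. The site with the highest score, 32.1 kb downstream of *ABCB9*, lay inside *VPS37B*, an endosomal sorting gene, which had 6.86 in EtOH and 13.8 in R5020 (log2 change 0.92). By contrast *ABCB9* was within 1.5-fold. The intronic *ABCC8* site was near *KCNJ11* and *B7H6*, the latter with 2.15 and 3.76 (0.59). A site in *ABCG1* was near *TFF3*, a trefoil peptide gene, with 2.69 and 1.33 (−0.67). Which gene, if any, a site acts on was not tested.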

How the data were processed

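For the RNA-seq libraries (50-bp paired-end reads of poly(A)+ RNA) the authors mapped the reads with TopHat (hg19), set aside multiply mapped ones and deposited FPKM per RefSeq transcript from Cufflinks, together with a coverage signal that was used here only to express depth as read equivalents. For the ChIP-seq library they aligned reads with Bowtie 1.1.2 and deposited MACS sites called against input DNA, with a score. The input library has no file here. FPKM was summed by gene symbol (41138 transcripts, 23287 symbols), a pseudocount of 1 was added, genes reaching an FPKM of 1 in either library were kept, and the threshold was 1.5-fold. With 1 library per condition no test was run. Strand, exons and sequence came from GENCODE release 44 on GRCh37, and site positions were assigned by midpoint. Locus and site starts in the files count from 0 and were raised by 1. Stretches overlapping an annotated untranslated region were printed only up to 30 bases. The members and lists were chosen with earlier results of these data known, and roles of members were assigned after their values had been seen. Values were given for the retained members (a few named genes are not reported here), with more detail for those past 1.5-fold, those with a site, the highest of each subfamily and those nearest the threshold. Low members named beyond this rule (*ABCB1*, *ABCG2*, *ABCC2* and the like) were chosen for their known roles. The procedure was tested on simulated data. Python 3.11.15, pandas 2.3.3, numpy 2.4.6 and matplotlib 3.10.9 were used.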

Additional observations from a re-analysis of the deposited data

How the results depend on the processing

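No paired analysis was possible because there was 1 library per condition, and for the same reason no replicate could be left out. Of 85 summary values recomputed under an alternative, 63 stayed within the margin (1.5 times for counts, 0.1 for log2 ratios of sums). Some of these could not have left it. The number of retained members does not depend on the pseudocount or the fold threshold. Leaving out transcripts with a status other than OK changes no member, and rescaling shifts every log2 ratio of sums by 0.012. The 63 is therefore no measure of how firm the values are. With a threshold of 2-fold, 0 members were higher and 1 lower (all genes 378 and 144). With each gene represented by the transcript of the highest FPKM in each library, 3 members were higher, since *ABCC1* (different transcripts in the libraries) and *ABCE1* joined *ABCB10*, and the log2 ratios of the sums became −0.23 for ABCA, 0.68 for ABCE and −0.0488 for ABCG. Under this choice the sign also differed for 5 retained members (*ABCC1*, *ABCC10*, *ABCC11*, *ABCF1* and *ABCG1*), and 17 of 26 lay below 0 (65.4%, against 48.3% of all genes). The sign of no retained member differed under rescaling. A pseudocount of 0.1 or none, the latter chosen after the data were seen, cannot alter a sign, so these settings were no check of it. Without a filter 50 members were tested. All genes lower numbered 787 with a pseudocount of 0.1 and 299 with FPKM of at least 1 in both conditions.

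Members with a PR site numbered 11 when the site had to overlap the locus, 13 within 10 kb, 10 with sites scoring at least 100 and 14 by distance from the start of transcription (retained members 7, 9, 7 and 11). All genes with a site numbered 4201, 6413 and 3336 under the former 3, and by the start of transcription 28% of members and 39.2% of the genes with a known strand had one. How far the values of *ABCC6* and its copies can be separated was not tested.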

Other observations

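Genes that work beside ABC proteins were counted from lists of known partners. Of 18 xenobiotic, sterol and steroid receptor genes and their partners 14 were retained. Among these *VDR*, the vitamin D receptor, was called higher, with FPKM values of 6.35 in EtOH and 24.9 in R5020 (log2 change 1.82), and *ESR1* and *PGR* were called lower, with −0.61 and −0.60. *RXRA* and *AHR* stayed within 1.5-fold at −0.56 and 0.53. Of 17 retained genes of sterol traffic and synthesis 2 were lower, *INSIG2*, which holds back sterol synthesis, with 5.67 and 2.81 (−0.81), and *LCAT*, with 3.24 in EtOH and listed at 0 in R5020.

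Of 12 retained genes of glutathione and conjugation *GCLC*, the rate-limiting enzyme of glutathione synthesis, was higher, with 6.18 and 10.7 (0.70). Of 14 retained peroxisomal genes 2 were higher, among them *ACSL1*, which activates fatty acids, with 18.2 and 42.3 (1.17). Of 15 retained genes of haem and iron-sulfur synthesis *PPOX* was lower, with 4.33 and 2.21 (−0.73), and none was higher. None of 16 retained genes of translation start and ribosome recycling passed 1.5-fold. Of 5 retained potassium channel and scaffold partners 2 were higher, *KCNJ11* and *EZR*, the latter with 33.5 and 56.6 (0.74). On the list of family members and a partner under other symbols 3 of 4 genes were retained and none passed 1.5-fold. *TAP1* and *TAP2*, the antigen peptide transporter, had 7.71 and 2.34 in EtOH and 6.52 and 2.32 in R5020, and *CFTR* was below an FPKM of 1. The median log2 changes of the retained genes were −0.27 for the receptors, −0.24 for sterol traffic, −0.21 for the family under other symbols, −0.09 for haem and iron-sulfur synthesis, −0.08 for glutathione, −0.07 for channel partners, −0.03 for peroxisomes and 0.11 for translation, against 0.01 over all retained genes. Beside these counts stand 7.67% of all retained genes called higher and 4.14% called lower.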
